A study of Homo sapiens with 5 samples.

Results

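Intergenic H2A-K130ac peaks lying 50 kb to below 500 kb from the nearest transcription start site were examined in 2 libraries of C4-2B cells, of which 1 was treated with abiraterone and 1 with Romidepsin. They were taken as the rows of each annotated peak list that carried the annotation of distal intergenic DNA and a distance to the start site in that range, whichever the direction. This gave 18264 of 67806 annotated peaks under abiraterone (26.9%, exact 95% binomial interval 26.6 to 27.3%) and 23268 of 91398 under Romidepsin (25.5%, 25.2 to 25.7%), or 41532 of 159204 in all. They are called distant peaks below. Intergenic peaks nearer than 50 kb made up 15.7% under abiraterone and 18.0% under Romidepsin, and those at 500 kb or more 5.75% and 4.45%. Intervals here and below cover counting error over peaks only.

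C4-2B is a human prostate cancer cell line that can grow as castration-resistant tumors. Abiraterone inhibits CYP17A1, an enzyme of androgen synthesis, and Romidepsin inhibits the class I histone deacetylases HDAC1 and HDAC2. For each treatment 1 peak list from 1 library was used, with no untreated C4-2B library, so no test between treatments was possible and every difference below describes these libraries. The study's reporting summary says that samples were run in duplicate, but it is unstated if the lists used here combine them. The 3 VCaP samples of the series were not analysed here. The labels of both C4-2B samples name breast cancer and repeat the VCaP protocol of 0.5 µM Romidepsin overnight, so the dose and duration used for these libraries are uncertain. Peak lists hold no transcript levels, so the cell line could not be checked against marker genes, and they hold no read counts, so the depth behind a peak is unknown. Coordinates are read as hg19, because the last peaks on chromosome 1 end at 249119849 under abiraterone and 249191832 under Romidepsin, past the end of that chromosome in hg38, and because the transcript identifiers are those of hg19. The submitters' processing notes name hg38.

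Acetylation of histone tails loosens their hold on DNA and gives bromodomain proteins a place to bind. H2A-K130ac is a mark near the carboxyl end of histone H2A, for which the study names KAT2A as the acetyltransferase and HDAC1 and HDAC2 as the deacetylases. Most of the genome far from start sites is intergenic, and it holds enhancers, which loop to promoters over long distances, as well as gene deserts with few known elements. The nearest gene is therefore a name for a location and not a known target. Desert-flanked genes are often developmental regulators or neuronal adhesion genes, and microRNAs and long non-coding RNAs are also common neighbours of such DNA.

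Of the nearest genes that the naming rule picked out by their number of distant peaks, 3 encode microRNAs, whose seed (bases 2 to 8 of the mature strand) pairs with target transcripts. Their mature sequences from RefSeq (GRCh38.p14) are shown to identify them, since all 3 seeds differ and the loci share no microRNA family by that measure. The seed is in capitals.
hsa-miR-147a: gUGUGUGGaaaugcuucugc
hsa-miR-3924: aUAUGUAUaugugacugcuacu
hsa-miR-4642: aUGGCAUCguccccugguggcu
MIR147A at chr9:123007257-123007328 was the nearest gene of 20 distant peaks under abiraterone and 34 under Romidepsin. MIR3924 at chr10:59064239-59064319 had 34 and 19, and MIR4642 at chr6:44403378-44403459 had 4 and 25. MIR3924 thus had more abiraterone peaks, and MIR147A and MIR4642 had more Romidepsin peaks.

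The distant peaks were short and mostly weak. Under abiraterone they covered 6.40 Mb with a median width of 340 bp (interquartile range 163 to 443), and under Romidepsin 8.42 Mb with a median width of 346 bp (222 to 458). The narrowest peak in either list was 125 bp wide, and the widest were 1889 bp and 2224 bp. The authors' fold over the control had a median of 2.83 under abiraterone, with a range of 1.79 to 16.1, and a median of 2.61 under Romidepsin, with a range of 1.74 to 10.5. The study's reporting summary names the vehicle-treated sample as the control. The series holds vehicle and input libraries of VCaP cells only, so the control behind these C4-2B folds and q-values is uncertain. These folds were not normalized between libraries and were compared within a list only. Few distinct values occurred: 407 folds under abiraterone and 283 under Romidepsin, and the 4 commonest covered 41.4% and 61.8% of the distant peaks. A −log10 q of at least 2, or an expected share of false calls of at most 1%, was reached by 4630 abiraterone peaks (25.4%, 24.7 to 26.0%) and by 601 Romidepsin peaks (2.58%, 2.4 to 2.8%). Over all peaks of each list these shares were 24.9% and 2.73%, so the distant peaks reached it about as often as their whole list did. The study's reporting summary states the same 1% cutoff for its peaks, which most distant peaks of both lists did not reach. The counts below use every distant peak unless stated otherwise.

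Romidepsin peaks lay somewhat nearer to start sites inside the range. The median distance was 156 kb under abiraterone (95% interval 153 to 158) and 141 kb under Romidepsin (139 to 142). Between 50 and 100 kb lay 29.4% of the abiraterone and 33.2% of the Romidepsin peaks, while between 400 and 500 kb lay 8.29% and 6.88%. Upstream peaks slightly outnumbered downstream ones, at 53.1% (52.4 to 53.9%) and 52.4% (51.8 to 53.1%). The upstream share was highest between 50 and 100 kb, at 58.2% and 56.9%. Between 200 and 300 kb it was 49.9% and 49.3%, and between 400 and 500 kb 48.5% and 48.9%. Peaks inside genes are not distal intergenic, so the rule leaves out the body of the gene itself on the downstream side only. The part of this in the upstream shares was not tested. A peak downstream of a start site can still be close to the gene's end, and 18.9% of the 8557 downstream abiraterone peaks and 20.9% of the 11064 downstream Romidepsin peaks lay within 50 kb of the body of the gene to which they were assigned.

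**Figure D1:**
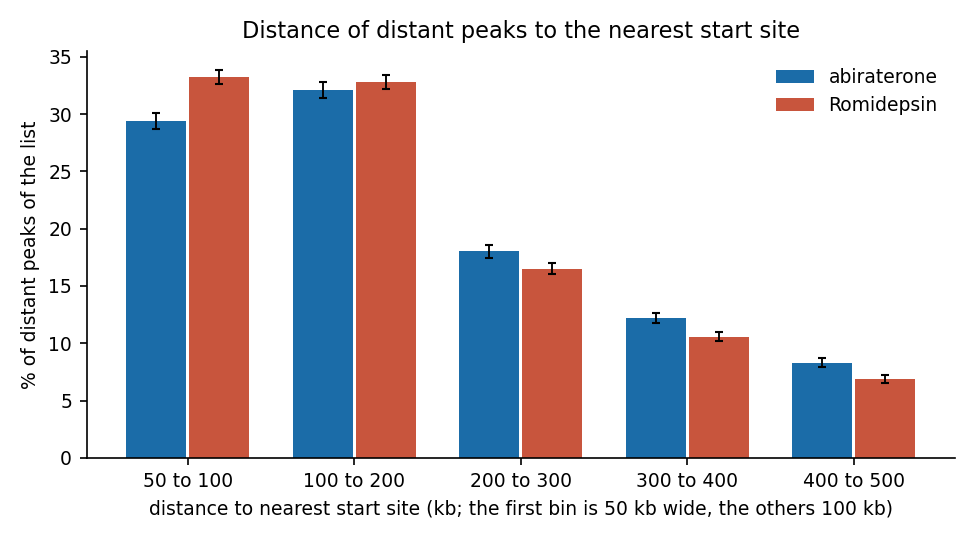
Share of the distant peaks of each list (vertical axis, %) by distance to the nearest start site (horizontal axis, kb), with abiraterone in blue, Romidepsin in red and exact 95% binomial intervals as bars. The Romidepsin share is higher from 50 to 100 kb (33.2% against 29.4%) and lower in each bin from 200 kb on.

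The bounds of the range cut a gradual slope. From 40 to 50 kb, just outside, there were 1494 abiraterone and 2234 Romidepsin peaks, and from 50 to 60 kb, just inside, 1309 and 1948. At the far bound, 138 and 136 peaks lay from 490 to 500 kb and 112 and 130 from 500 to 510 kb. The median fold was 2.83 under abiraterone and 2.61 under Romidepsin on either side of both bounds.

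Clustering within 10 kb was similar in extent but different in kind between the lists. Of the abiraterone distant peaks, 53.7% (53.0 to 54.5%) had another distant peak of their own list within 10 kb, measured between nearest edges, against 56.3% (55.7 to 57.0%) of the Romidepsin ones. The same measure within intergenic peaks nearer than 50 kb gave 52.2% and 53.5%, and within those at 500 kb or more 48.8% and 46.2%. When a neighbour of any annotation in the same list counted, the shares were 54.5% and 57.5% for distant peaks and 56.7% and 60.9% for intergenic peaks nearer than 50 kb. The order of these classes thus depended on which neighbours counted. With the Romidepsin list cut to its 18264 distant peaks of highest fold, its share was 50.0%, below that of abiraterone. A distant peak of the other list lay within 10 kb of 45.7% of the abiraterone peaks (44.9 to 46.4%) and 37.3% of the Romidepsin peaks (36.7 to 37.9%). With both lists at 18264 distant peaks, these other-list shares were 38.9% and 37.8%, and thus nearly alike. Within 1 kb the contrast between own-list and other-list neighbours was sharper. There 30.1% of abiraterone peaks had a neighbour of their own list and 10.4% one of the other, and the shares for Romidepsin were 17.3% and 7.59%. Within 100 kb it was gone for abiraterone, at 94.4% and 94.5%, and small for Romidepsin, at 95.8% and 90.9%.

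Much of this short-range clustering came from pairs of very close peaks. Successive distant peaks at most 300 bp apart numbered 2493 under abiraterone, or 43.4% of all neighbours within 10 kb, and 1490 under Romidepsin, or 18.6%. Such pairs involved 27.2% of the abiraterone and 12.6% of the Romidepsin distant peaks, and also 27.5% and 12.6% of all other peaks, so they were a feature of each list as a whole. The 2 peaks of a pair were separated by a median of 184 bp under abiraterone and 187 bp under Romidepsin, and none in either list by less than 151 bp. Their median width was 126 bp and 127 bp, against 376 bp and 361 bp for the remaining distant peaks. They reached a −log10 q of 2 less often than the remaining ones, in 17.3% against 28.3% of abiraterone peaks and 1.43% against 2.75% of Romidepsin peaks. What gave rise to these pairs was not tested. When peaks at most 300 bp apart were joined, 15771 abiraterone and 21778 Romidepsin regions remained, of which 36.6% (35.8 to 37.3%) and 50.1% (49.5 to 50.8%) had a neighbour of their own list within 10 kb. The nearness of the other list hardly moved, at 45.5% and 37.4%. After joining, abiraterone regions therefore had a neighbour of the Romidepsin list within 10 kb more often than one of their own list, while Romidepsin regions had one of their own list more often. In both cases the commoner neighbour came from the longer list, and list length was not evened out after joining.

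**Figure D2:**
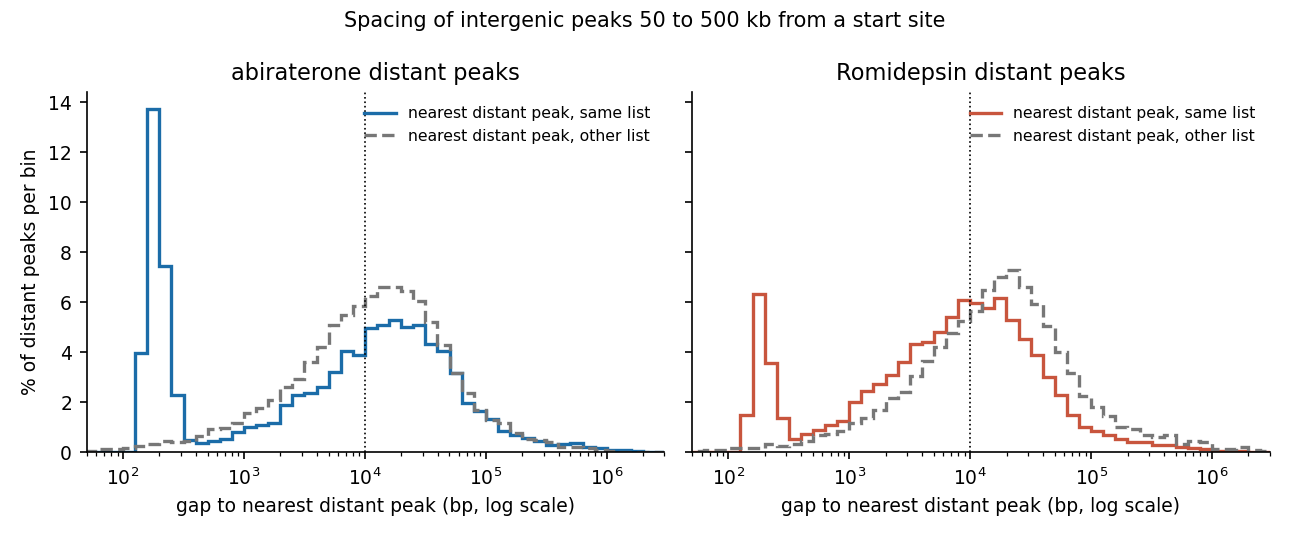
Gap from each distant peak to the nearest distant peak of its own list (solid line) and of the other list (dashed line), in bp on a log scale, against the share of distant peaks per bin (%), with 10 kb marked by a dotted line. Own-list gaps have a separate maximum below 300 bp, higher under abiraterone than under Romidepsin, while other-list gaps show none there. Overlapping peaks of the 2 lists, with a gap of 0, fall outside the axis.

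A cluster was counted as a run of distant peaks of 1 list with successive gaps of at most 10 kb. Under abiraterone there were 4071 clusters of at least 2 peaks, made up of 2947 pairs, 739 triples, 348 clusters of 4 or 5 and 37 of 6 or more. Under Romidepsin there were 5110, of which 3337 were pairs, 1098 triples, 578 of 4 or 5 and 97 of 6 or more. Clusters of at least 3 held 21.5% of the abiraterone peaks (20.9 to 22.1%) and 27.7% of the Romidepsin peaks (27.1 to 28.2%), so the longer runs were commoner in the longer list. The median span of a cluster was 3.08 kb under abiraterone and 5.72 kb under Romidepsin. A distant peak of the other list lay inside 16% of the abiraterone and 17.7% of the Romidepsin clusters. By chromosome, the share of abiraterone peaks with an own-list neighbour within 10 kb was 59.0% on chromosome 1 and 43.6% on chromosome X, and the Romidepsin shares there were 65.4% and 43.0%.

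The largest abiraterone clusters held 8 peaks each. That at chr3:74697858-74723857 lay 128 to 153 kb from the start of CNTN3, a contactin of neuronal cell adhesion. Its 8 peaks fell to 5 regions when close pairs were joined, 4 of them reached a −log10 q of 2, and their folds ran from 2.69 to 3.78. The 3 others of 8 peaks lay near LINC00544 at chr13:30595546-30624367, near LYPLAL1-DT at chr1:219101652-219136087, and near RFC3, a subunit of the clamp loader of DNA replication, at chr13:34715597-34754514. The fifth, with 7 peaks near the scaffold gene DLG1, was at chr3:197082123-197098643. Peaks covered 7.01 to 14.8% of the span of these 5 clusters, and at most 1 Romidepsin distant peak lay inside any of them.

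The largest Romidepsin clusters held 10 peaks. That at chr1:229230613-229260562, near the endosomal GTPase gene RAB4A, spanned 29.95 kb, gave 8 regions after joining, and had 4 abiraterone distant peaks inside it. The other, at chr5:173812701-173853535, lay between NSG2, a neuronal vesicle gene, and MSX2, a homeobox gene of bone and skull formation, and held none. Clusters of 9 peaks lay near SV2C, a synaptic vesicle protein gene, at chr5:75279971-75298566, near the serine protease gene TMPRSS5 at chr11:113500517-113522893, and near RAMP3, a receptor partner of calcitonin family peptides, at chr7:45252219-45277247. No peak of the last 4 reached a −log10 q of 2. RAB4A was thus the 1 large cluster of these 10 with more than 1 distant peak of the other list inside.

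Few distant peaks were at the same place in both lists, and this held for the whole lists too. Over all peaks, 4.04% of the abiraterone and 2.90% of the Romidepsin ones were overlapped by a peak of the other list. A distant Romidepsin peak overlapped 692 abiraterone distant peaks (3.79%, 3.52 to 4.08%), and a distant abiraterone peak overlapped 665 Romidepsin ones (2.86%, 2.65 to 3.08%). The 706 overlapping pairs shared a median of 159.5 bp and lay nearest to 569 genes. Overlapped peaks were somewhat wider than the rest, with medians of 370.5 bp against 339 bp under abiraterone and 381 bp against 345 bp under Romidepsin, and wider peaks have more room to overlap. They reached a −log10 q of 2 in 33.1% of cases under abiraterone and 4.66% under Romidepsin.

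In 12 of the 706 pairs both peaks reached a −log10 q of 2. The nearest genes of these pairs are all given, chosen after their values were seen. Ranked by the smaller fold, the first pair was 108 kb from ANKH, a pyrophosphate transporter gene, where the abiraterone peak at chr5:14980004-14980652 had a fold of 6.27 and the Romidepsin peak at chr5:14980604-14980932 a fold of 5.13, though they shared 49 bp at their edges. Near LHX2, a LIM homeobox gene of forebrain and limb development, the Romidepsin peak at chr9:126841121-126841756 with a fold of 6.88 covered 316 bp of an abiraterone peak with a fold of 3.78 and 119 bp of another with a fold of 4.75. Near APC, a tumor suppressor of the WNT pathway, the peaks shared 388 bp, with folds of 4.48 and 5.16, and near the lncRNA gene LINC02877 they shared 403 bp, with folds of 4.48 and 4.90. Near LRATD2, which borders the MYC desert of chromosome 8, they shared 435 bp, with folds of 3.58 and 5.98. The remaining 6 genes were ST3GAL5, ICE1, MIR3924, TSC22D2, the N-cadherin gene CDH2 and the synaptic adhesion gene LRRC4C, with 49 to 307 bp shared.

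The spread over chromosomes differed between the lists. Over all chromosomes there were 0.785 abiraterone distant peaks for each Romidepsin one. On chromosome 3 this ratio was 1.41 (1.30 to 1.52), from 1519 abiraterone and 1078 Romidepsin peaks, and on chromosome 7 it was 1.13 (1.04 to 1.23), from 1162 and 1030. Abiraterone peaks were the more numerous on these 2 of 23 chromosomes, the Y left out. The lowest ratios were 0.471 on chromosome 20 (0.404 to 0.547, 258 and 548 peaks), 0.472 on chromosome X (0.428 to 0.521, 592 and 1253 peaks) and 0.492 on chromosome 22, followed by 0.573 on chromosome 2 (1485 and 2591 peaks) and 0.593 on chromosome 6. The interval lay above 0.785 on 7 chromosomes, below it on 8 and across it on 8. Chromosomes 3, 5 and 7 together held 23.9% of the abiraterone and 16.6% of the Romidepsin distant peaks.

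**Figure D3:**
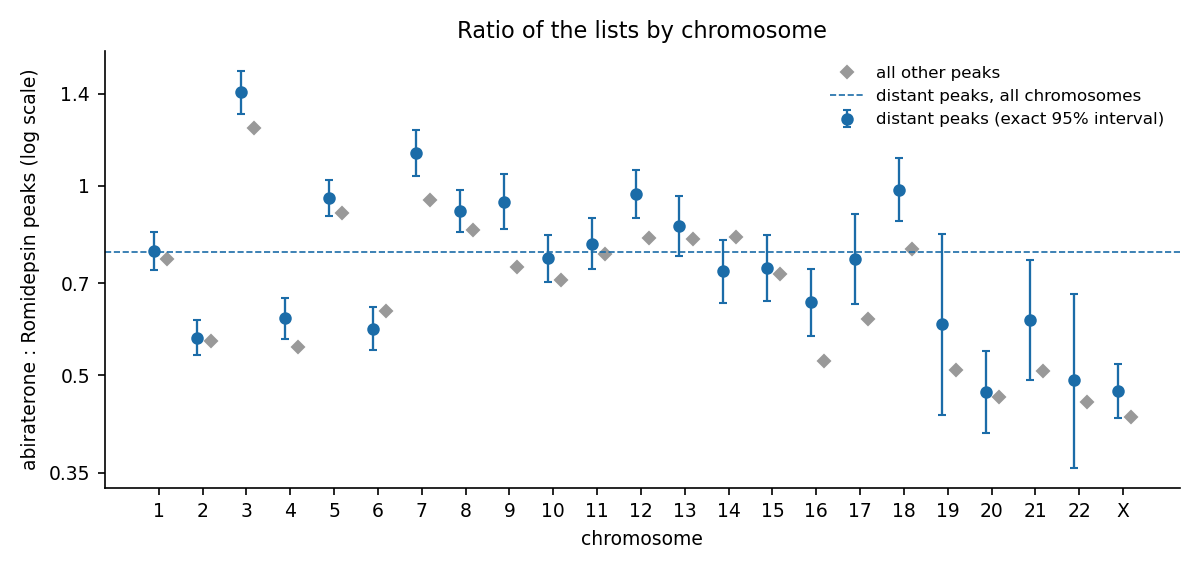
Ratio of abiraterone to Romidepsin peaks on each chromosome (log scale) for the distant peaks (circles, exact 95% intervals) and for all other peaks (diamonds), with the ratio of all distant peaks as a dashed line. Chromosomes 3 and 7 lie above 1 and chromosomes 20, 22 and X below 0.5, and the other peaks follow the same order closely.

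The other peaks of the 2 lists, with an overall ratio of 0.727, were divided in nearly the same way. Their ratio was 1.24 on chromosome 3, 0.950 on chromosome 7, 0.461 on chromosome 20 and 0.430 on chromosome X. Distant and other peaks lay on the same side of their overall ratio on 22 of 23 chromosomes, and the log2 ratios had a Pearson r of 0.943 and a Spearman rho of 0.886 over these 23 chromosomes, which come from the same pair of libraries. In 280 windows of 10 Mb with enough peaks, of 319, rho was 0.806. The uneven spread was therefore shared with the rest of each list. The numbers of DNA copies in C4-2B and the read depths, each of which differs by chromosome or library, are not in the lists, so their part was not tested.

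Within chromosomes, the ratio of distant peaks varied from 0.216 to 3.64 between windows. The highest value was at 20 to 30 Mb of chromosome 13, with 91 abiraterone and 25 Romidepsin peaks, where the nearest genes include the pseudogene BASP1P1. On chromosome 3 the windows at 150 to 160 Mb (130 and 42 peaks) and 160 to 170 Mb (113 and 41) had ratios of 3.10 and 2.76, and 14 of its 20 windows were above 1. On chromosome 7 the window at 80 to 90 Mb, which holds SEMA3D, had 122 and 55 peaks. The lowest ratio was at 130 to 140 Mb of chromosome 9, with 8 and 37 peaks. All 15 windows of chromosome X were below 0.785. The chromosome 3 excess was thus broad with local maxima, and the deficit on chromosome X ran along its length.

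The chromosome pattern changed among the strongest peaks. Among distant peaks whose −log10 q was 2 or more, there were 7.70 under abiraterone for each under Romidepsin. Relative to that, the chromosome 3 ratio was 1.08 times the overall one (0.802 to 1.495), where it had been 1.80 times with every distant peak. On chromosome X, 159 abiraterone and 8 Romidepsin peaks passed, so that the ratio was 2.58 times the overall one (1.28 to 6.08) where it had been 0.602 times. On chromosome 20 the value was 0.964 times (0.436 to 2.52) against 0.600 times, too few peaks to tell these apart. In all, 12 of 23 chromosomes stayed on the same side of the overall ratio. The differences on chromosomes 3 and X described above thus came from peaks with a −log10 q below 2, which are most of each list.

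The distant peaks were nearest to 3602 genes under abiraterone and 4116 under Romidepsin, 4563 in all. Of these, 3155 had distant peaks in both lists, which is 87.6% (86.5 to 88.7%) of the abiraterone and 76.7% (75.3 to 77.9%) of the Romidepsin genes. Most of these genes thus had distant peaks in both lists, although few peaks overlapped. When a −log10 q of 2 was required, 16.9% of the abiraterone and 69.3% of the Romidepsin genes were shared. How much sharing the numbers of peaks alone would give was not tested, so these shares are no measure of likeness. With every distant peak counted, the median was 3 per gene under abiraterone and 4 under Romidepsin, with maxima of 40 and 43. Genes with at least 10 distant peaks, 573 and 776 of them, held 45.0% and 50.5% of the distant peaks. Over the genes with distant peaks in both lists, the 2 counts had a Spearman rho of 0.632. The length of the surrounding intergenic DNA was not measured, so its part in this value was not tested. The nearest gene was protein-coding for 75.9% and 76.4% of distant peaks, against 85.0% and 84.8% of the other peaks. LncRNA genes accounted for 15.2% and 14.9%, and microRNA genes for 4.45% and 4.67%.

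**Figure D4:**
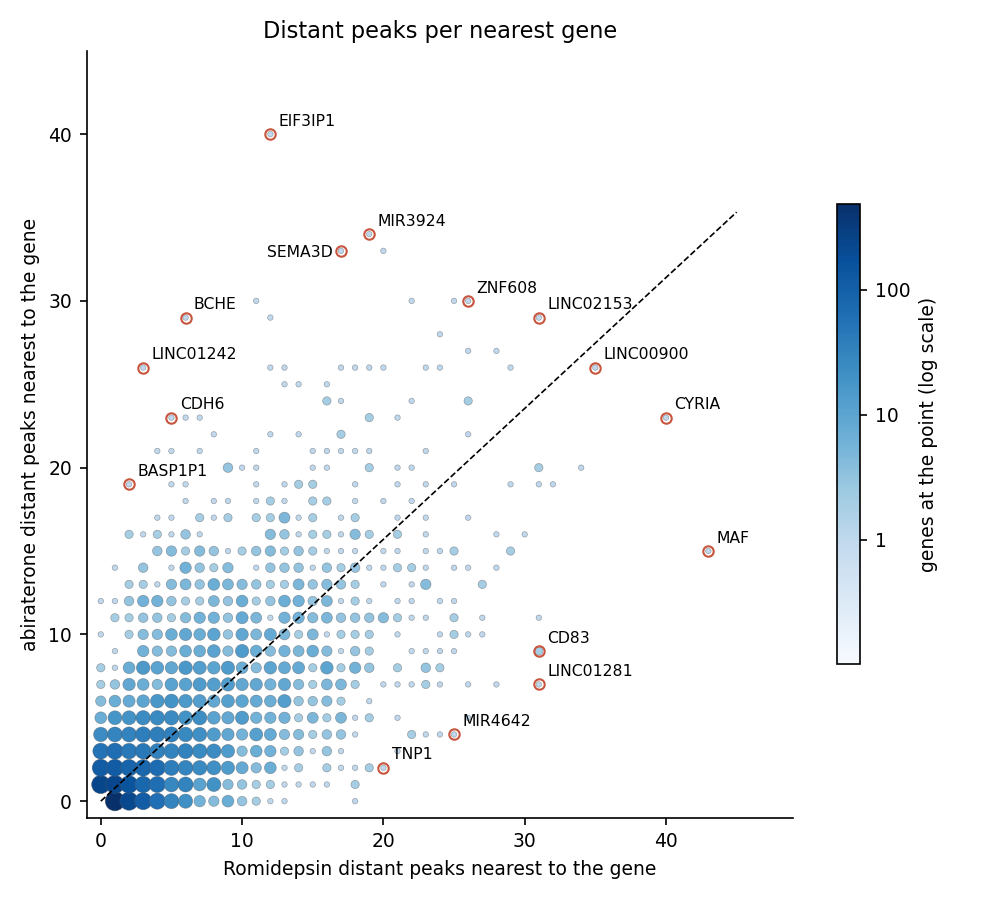
Distant peaks per nearest gene, Romidepsin on the horizontal and abiraterone on the vertical axis, with the shade and size of each point giving the number of genes there and the dashed line the overall ratio of 0.785. EIF3IP1 (40 and 12) and BCHE (29 and 6) stand far above the line and MAF (15 and 43) and CD83 (9 and 31) far below it.

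Among the 10 genes with most abiraterone distant peaks, pseudogenes and non-coding genes were prominent. Non-coding genes were also prominent among the 10 with most Romidepsin distant peaks, given below. EIF3IP1, a pseudogene of a translation initiation factor subunit at chr7:109599284-109600270, had 40 under abiraterone, in 24 clusters or single peaks, and 12 under Romidepsin. The highest abiraterone fold there was 8.22, and 11 of the 40 reached a −log10 q of 2. MIR3924 followed with 34 and 19, the lncRNA gene LINC00992 on chromosome 5 with 33 and 20, and SEMA3D, a secreted semaphorin of axon guidance at chr7:84624872-84816171, with 33 and 17. At SEMA3D, 24 of the 33 abiraterone peaks were upstream. The other protein-coding genes of this group were KCNU1, a potassium channel of sperm (30 and 22), ZNF608, a zinc finger gene (30 and 26), and BCHE, which encodes butyrylcholinesterase (29 and 6). The remaining ones were LINC02740 (30 and 25), PER3P1, a pseudogene of a circadian clock gene (30 and 11), and LINC02153 (29 and 31). LINC02153 was thus the 1 gene of the 10 with more Romidepsin than abiraterone peaks.

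Among the 10 genes with most Romidepsin distant peaks, MAF led. MAF, a basic leucine zipper transcription factor at chr16:79627745-79634622, had 43 under Romidepsin, in 24 clusters or single peaks with up to 5 peaks together, and 15 under abiraterone. None of the 43 reached a −log10 q of 2, while 4 of the 15 did, and the highest Romidepsin fold was 4.35. CYRIA, a regulator of the actin cytoskeleton on chromosome 2, had 40 under Romidepsin and 23 under abiraterone, and again none of the 40 reached a −log10 q of 2. GPAM, which encodes the acyltransferase of the first step of glycerolipid synthesis, had 32 and 19, all of them on the downstream side, and the highest Romidepsin fold was 7.56. The other protein-coding genes were CD83, a surface protein of mature dendritic cells (31 and 9), and DUSP10, a phosphatase of stress-activated MAP kinases (31 and 19). LINC00900 had 35 Romidepsin and 26 abiraterone peaks, MIR147A 34 and 20, LINC01281 on chromosome X 31 and 7, LINC02153 31 and 29, and LINC02291 31 and 20.

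Some genes had many distant peaks in both lists. Ranked by the smaller of the 2 counts, LINC02153 came first with 29 abiraterone and 31 Romidepsin peaks, followed by FIGN, a microtubule-severing enzyme gene (27 and 28), and LINC00900 (26 and 35). ZNF608, the pseudogene PABPC1P2 (26 and 29), ID4, an inhibitor of helix-loop-helix factors (27 and 26), and LINC02740 came next. The last 3 were ADGRL2, a latrophilin of synaptic adhesion (28 and 24), ADRA2A, the alpha-2A adrenergic receptor gene (24 and 26), and LINC00290 (26 and 24). ADRA2A and GPAM lie on chromosome 10, with the former ending at 112840662 and the latter starting at 113914758, so 2 of the named genes border nearby intergenic DNA and are not separate examples. With 24 to 35 peaks in each list, these loci were close to even, and the counts differed most at LINC00900. A ranking by the smaller count favours even counts, so this evenness follows from the choice and is no trait of the loci.

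Among the 634 genes with at least 20 distant peaks in both lists together, the median abiraterone share was 45.0% (interquartile range 35.8 to 54.8%), against 44.0% over all distant peaks. The highest share was at BASP1P1, a pseudogene at chr13:23471169-23472320, with 19 abiraterone and 2 Romidepsin peaks (90.5%, 69.6 to 98.8%). It was followed by LINC01242 on chromosome 9 (26 and 3), PLK2, a polo-like kinase gene (21 and 4), BCHE (29 and 6), CDH6, a cadherin gene (23 and 5), and NR2F1-AS1, a lncRNA gene antisense to an orphan nuclear receptor gene (17 and 4). DIPK2A (21 and 5), FGF10, a growth factor of lung and limb budding (16 and 4), LINC02877 (16 and 4) and TUSC7, a lncRNA gene (23 and 6), completed the 10. Of these, 4 lay on chromosome 3 and 4 on chromosome 5, while 14.7% of the 634 genes were on those chromosomes. The gene order at this end thus partly repeats the spread over chromosomes given above.

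At the low end most of the 10 genes were protein-coding. So was the nearest gene of 75.9% of all abiraterone and 76.4% of all Romidepsin distant peaks, so this does not set them apart. TNP1, which encodes a protein that replaces histones in spermatids, at chr2:217724182-217724782, had 2 abiraterone and 20 Romidepsin peaks (9.09%, 1.12 to 29.2%), of which 19 Romidepsin peaks were upstream. LCORL, a gene linked to body height, and NECTIN1, a cell adhesion gene, each had 2 and 19, and SOX1, a transcription factor of neural progenitors, had 2 and 18. MROH5 (3 and 21), MIR4642 (4 and 25), LOC339593 (4 and 24), RPS6KA3, a growth factor-activated kinase gene (4 and 23), CDH5, the endothelial cadherin gene (3 and 17), and KIT, the receptor of stem cell factor (4 and 22), completed the 10. They were spread over 9 chromosomes. When close pairs were joined, all 20 genes of both ends stayed on their side of the share over all distant peaks. Being chosen from the ends of 634 values, these shares are a description and carry no test.

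Genes with distant peaks in a single list held few of them. There were 447 such genes under abiraterone, with 834 peaks (4.57%), and 961 under Romidepsin, with 2034 peaks (8.74%). Those with most, chosen after their values were seen, were GPR12, an orphan receptor gene (12), and FGF12, a regulator of sodium channels (10), for abiraterone, and AGAP1, an endosomal traffic regulator (18), and DCAF12L2 on chromosome X (13) for Romidepsin. A gene without a distant peak in a list can have peaks at other distances in it.

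Gene groups were read against 24.8% of all 18406 genes nearest to any peak that had a distant peak, and against the abiraterone share of 44.0% (43.5 to 44.5%). Cadherins, protocadherins and synaptic adhesion genes were the group most often bordered by distant peaks, with 82 of 91 genes (90.1%), and their 742 abiraterone and 685 Romidepsin peaks gave a share of 52.0% (49.4 to 54.6%). Its leading genes after ADGRL2 and SEMA3D were the teneurin gene TENM4 (15 and 29), the ephrin receptor gene EPHA4 (20 and 21), LRRC4C (20 and 19) and the axon guidance receptor gene ROBO1 (26 and 13). Neuronal channels and neurotransmitter receptors had distant peaks at 59 of 77 genes (76.6%), with 404 and 408 peaks (49.8%, 46.3 to 53.2%). Here the muscarinic receptor gene CHRM3 (20 and 9) and the serotonin receptor gene HTR7 (21 and 7) had more abiraterone peaks, and another serotonin receptor gene, HTR1B (15 and 24), and the potassium channel gene KCNMA1 (8 and 16) more Romidepsin peaks. Intervals of both groups lay above the overall share, though single genes went either way. These shares allow neither for chromosome nor for the close pairs of peaks. SEMA3D and ROBO1 lie on chromosomes 7 and 3, where the share of all distant peaks was high, and EPHA4 lies on chromosome 2, where it was low.

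**Figure D5:**
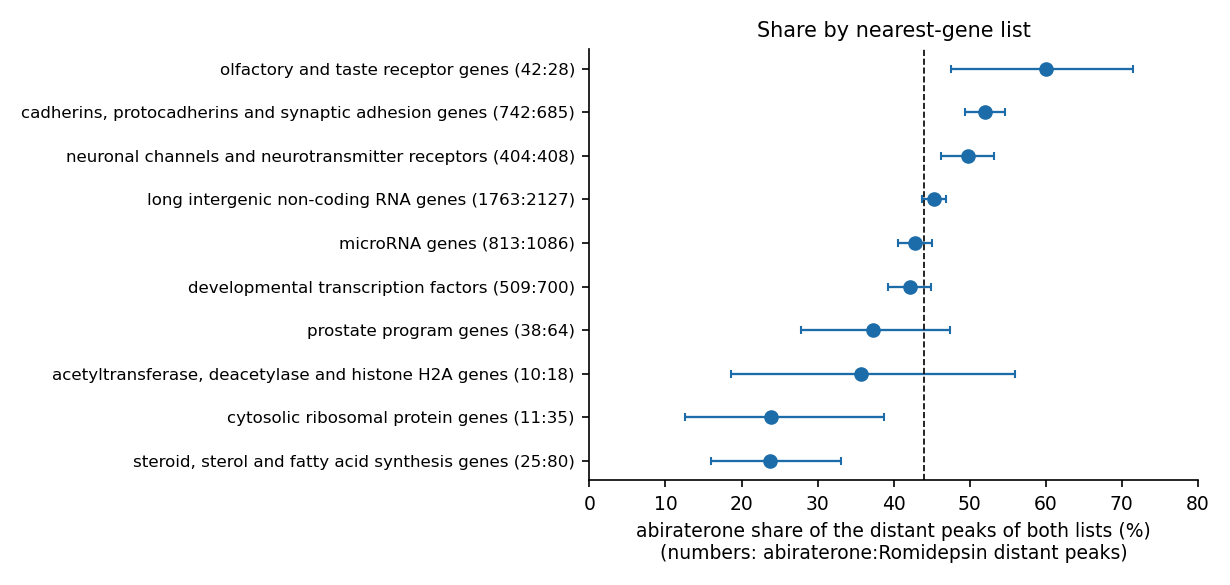
Abiraterone share (%, horizontal axis) of the distant peaks of both lists for 10 gene groups, with exact 95% binomial intervals, the counts of abiraterone and Romidepsin peaks in the labels and the share of all distant peaks (44.0%) as a dashed line. Adhesion and channel genes lie to the right of the line and ribosomal protein and lipid synthesis genes to the left.

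Developmental transcription factors had distant peaks at 75 of 96 genes (78.1%), and the share of their 509 abiraterone and 700 Romidepsin peaks, 42.1% (39.3 to 44.9%), included the overall one in its interval. After MAF and ID4 they were led by NR2F2, an orphan nuclear receptor (20 and 31), and TBX3, a T-box factor of limb and breast (24 and 26). SOX11 (16 and 23), the zinc finger gene SALL1 (11 and 27) and IRX3 (16 and 19) followed, so that among these 7 genes ID4 had the higher count under abiraterone. LINC genes had distant peaks at 293 of 532 (55.1%), with a share of 45.3% (43.7 to 46.9%). MicroRNA genes had them at 195 of 805 (24.2%), close to the figure for all genes, with 813 and 1086 peaks (42.8%, 40.6 to 45.1%).

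Genes of steroid, sterol and fatty acid synthesis, the processes that androgen production draws on, had distant peaks at 13 of 55 genes (23.6%), close to all genes, with 25 abiraterone and 80 Romidepsin peaks (23.8%, 16 to 33.1%). Most of these peaks were near 4 genes. NR5A2, a nuclear receptor that activates steroid-making enzymes, had 13 and 22, and INSIG2, which retains the SREBP precursors of sterol synthesis in the endoplasmic reticulum, had 4 and 16. INSIG1, with the same role, had 1 and 12, and SRD5A2, which converts testosterone to dihydrotestosterone, had 3 and 9. ELOVL6 had 1 and 5, and the acyl-CoA synthetase genes ACSL4 and ACSL3 had 0 and 6 and 0 and 4. The group holds few genes, and 4 of these 7 lie on chromosomes 2 and X, where the ratio of all distant peaks was low too. Each of the 7 also had a lower abiraterone share than all distant peaks of its own chromosome. For INSIG1 these shares were 7.69% and 53.0% (chromosome 7), and for INSIG2 20% and 36.4% (chromosome 2). They were closest for NR5A2, at 37.1% and 44.1% (chromosome 1). ELOVL5, with 1 peak in each list, had a higher share than its chromosome. The part of the chromosomes in the share of this group was not tested.

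Genes of the prostate program had distant peaks at 11 of 32 (34.4%), with 38 and 64 peaks (37.3%, 27.9 to 47.4%). PCAT1, a prostate cancer lncRNA gene (13 and 8), and STEAP4, a metalloreductase gene (8 and 3), had more abiraterone peaks. The ETS factor gene ETV1 (7 and 12) and the stress-response gene NDRG1 (3 and 12) had more Romidepsin peaks. MYC had 2 in each list. Acetyltransferase, deacetylase and histone H2A genes had distant peaks at 4 of 34 (11.8%), with 10 and 18 peaks, of which HDAC4 had 7 and 15. Ribosomal protein genes had them at 6 of 57 (10.5%), with 11 and 35 peaks (23.9%, 12.6 to 38.8%), of which RPL38 had 1 and 18. Olfactory and taste receptor genes had them at 15 of 264 (5.68%), with 42 and 28 peaks (60.0%, 47.6 to 71.5%), of which the pseudogene OR7E156P had 16 and 15. In the ribosomal group RPL38 thus held a large part of the Romidepsin peaks. OR7E156P held a large part of the olfactory ones, but its own counts were nearly even.

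The distant peaks of highest fold were each seen in 1 list, as were most distant peaks. Under abiraterone the highest was at chr1:184091678-184091868, with a fold of 16.1, 70.9 kb downstream of the start of TSEN15, a subunit of the tRNA splicing endonuclease, in a cluster of 5. Next came chrX:112447304-112447474, with a fold of 10.4, 363 kb upstream of AMOT, a regulator of YAP signalling, and chr6:154079447-154079899, with a fold of 9.49, 252 kb upstream of OPRM1, the mu opioid receptor gene. The last 2 were near PTPRD, a receptor phosphatase gene (9.36), and AASDHPPT (8.55). Under Romidepsin the highest was at chr3:181570625-181570807, with a fold of 10.5, 141 kb downstream of SOX2, a pluripotency factor gene. It stood alone, with the nearest distant Romidepsin peak 43.8 kb away and an abiraterone one 4.65 kb away. It was followed by chr5:103975080-103975308 near the pseudogene RAB9BP1 (8.40), by peaks with a fold of 7.84 near NR2F1-AS1 and MIR147A, and by one near BARHL2, a homeobox gene of the retina and spinal cord (7.74). None of these 10 was overlapped by a distant peak of the other list, the nearest of which lay 1.49 to 31.9 kb away. Overlap was rare over all distant peaks too, at 3.79% under abiraterone and 2.86% under Romidepsin, so this does not set the 10 apart. These 10 peaks were narrow, at 171 to 453 bp, so the strongest distant peaks were not the widest.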

How the data were processed

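H2A-K130ac ChIP-seq peak lists of the abiraterone and the Romidepsin library of C4-2B were used. Per the labels, reads were aligned with Bowtie 2 and peaks called with MACS. The submitters' processing notes name MACS2 and hg38, while the coordinates fit hg19. The fold over the control (a ratio), the −log10 p- and q-values and the score (a multiple of the −log10 p-value) of each peak were deposited by the authors. The annotated tables also hold the authors' nearest gene and signed distance. Each holds 1 row fewer than its peak list (67807 and 91399 peaks), because the first peak became the header, and its conservative and optimal versions were identical.

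Distant peaks and gene groups were chosen with earlier results of these data known. Gaps run between nearest edges, and any shared base counted as overlap. Distance to a gene body used the gene start and end that the annotation gives with each peak. Symbols came from the files and from a RefSeq table (GRCh38.p14), in which 4541 of 4563 gene identifiers matched. Peak sequences were not used here. Named were the 10 nearest genes with most distant peaks in each list, the 10 with the highest smaller count, the 10 highest and 10 lowest abiraterone shares among genes with at least 20 distant peaks, the nearest genes of the 5 highest folds and the 5 largest clusters in each list, and members of the gene groups. Some genes of these groups are not reported here. Windows of 10 Mb needed at least 30 distant peaks. Exact (Clopper-Pearson) 95% binomial intervals were used, with no test between treatments, because each has 1 library. The gap, overlap and cluster counts were tested on simulated data. Alternatives are given in the closing section. Python 3.11.15, numpy 2.4.6, pandas 2.3.3, scipy 1.17.1 and matplotlib 3.10.9 were used.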

Additional observations from a re-analysis of the deposited data

How the results depend on the processing

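No paired analysis was possible because there is 1 library for each treatment. Of 103 alternatives over 23 results, 50 left the value within its counting interval or, for the numbers of peaks, within 1.5 times, 52 moved it further and 1 turned the direction. The conservative tables gave identical values for all 23. With a −log10 q of at least 2, 4630 abiraterone and 601 Romidepsin distant peaks remained, 27.4% and 24.1% of the lists, with median folds of 3.78 and 5.23. Own-list neighbours within 10 kb then fell to 24.8% and 4.66%, clusters of at least 3 to 3.48% and 0.0%, overlap to 0.259% and 1.83%, other-list neighbours to 2.35% and 15.5%, and shared genes to 16.9% and 69.3%. The Romidepsin upstream share was 54.9% and the median distance 135 kb. Relative to the overall ratio, chromosomes 3, X and 20 were at 1.08, 2.58 and 0.964, so X changed direction. With both lists at 18264 distant peaks, abiraterone overlap was 3.12%, other-list neighbours 38.9% and shared genes 84.1%, while the Romidepsin median fold was 3.32, own-list neighbours 50.0% and clusters of at least 3 22.0%. A lower bound of 100 kb gave list shares of 19.0% and 17% and Romidepsin own-list neighbours of 54.8%. With a gap of 5 kb, own-list neighbours were 42.6% and 40.0%, clusters of at least 3 10.8% and 13.5% and other-list neighbours 29.1% and 23.0%, and with 20 kb they were 69.1% and 74.3%, 39.7% and 50.9%, and 65.2% and 56.5%. Overlap of at least 50% of both peaks gave 1.20% and 0.946%. Counting any peak of the same list gave 54.5% and 57.5%, clusters in place of peaks gave 1.61 on chromosome 3, and genes with at least 3 distant peaks were shared in 83.1% and 68.3%. Joining peaks at most 300 bp apart, chosen after seeing the data, gave own-list neighbours of 36.6% and 50.1% and clusters of at least 3 of 11.8% and 22.3%. So the order of the lists in own-list clustering turned with a −log10 q of 2, with equal numbers and with a gap of 5 kb. The causes were not tested, and the lists used hold no read counts, so the depth behind any peak is unknown.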
